A study of Mustela putorius furo with 8 samples.

Results

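The data described here are the single-cell transcriptomes of ferret pancreatic ductal epithelial (PDE) cultures on day 5 of polarization, compared between cystic fibrosis (CF) and wild-type (WT) animals. The members were all retained cells that the deposited cell table assigns to the CF or the WT day 5 library, which gave 2750 CF and 5326 WT cells, or 8076 of 32945 cells in the series. The other days held 10723 cells on day 2, 6241 on day 7 and 7905 on day 9.

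CF cultures came from ferrets carrying the CFTR KO/KO genotype, and WT cultures from ferrets with CFTR intact. Pancreata were taken from newborn animals of 1 to 3 days, and ductal cells were propagated for 10 passages on 804G-coated plastic before they were seeded on transwell inserts and brought to an air-liquid interface. The labels' growth protocol speaks of a longer culture at the interface than their extraction protocol and sample titles, and the day in the titles was used for every comparison between days. Neither genotype received a further treatment, and dead cells were removed from both before droplet capture. Each side is 1 library into which cells of several donors were pooled, so genotype, donor and library cannot be told apart. No test between the genotypes was therefore possible, and every interval below is a 95% interval that covers counting error only.

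CFTR is the apical anion channel through which duct cells secrete chloride and bicarbonate, and its loss causes cystic fibrosis. Pancreatic ducts also hold centroacinar cells, which sit where the duct meets the acinus and are regarded as a source of progenitors. PDX1, SOX9, HES1 and NR5A2 are transcription factors of the early pancreas, whereas SOX2 is known, among epithelia, mainly from foregut and airway. Fibronectin (FN1), transgelin (TAGLN) and caldesmon (CALD1) are read as mesenchymal or contractile genes when epithelial cells spread.

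The CF library held 71472170 unique molecular identifiers (UMIs) in its retained cells and the WT library 101186594. The median cell had 22793.5 UMIs and 4723 genes in CF and 16862 UMIs and 3992 genes in WT, whereas at 3000 UMIs a cell the median was 1395 genes on both sides. The median mitochondrial share was 6.76% in CF and 6.63% in WT, and 3 cell barcodes occurred in both libraries. Levels are given as CPM, the count of a gene's UMIs scaled to 1000000 UMIs of the library. A difference is log2 of (CF CPM + 1) over (WT CPM + 1), which understates the difference of genes at low level. Both libraries carried the ductal keratins KRT7 (2752 CPM in CF, 2771 in WT) and KRT19 (4539 and 5093 CPM), along with the epithelial genes EPCAM (148 and 121 CPM) and CDH1 (478 and 362 CPM). The duct transcription factor SOX9 was present at low level in both, at 5.79 CPM in CF and 6.63 in WT.

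The markers that define acinar, endocrine, fibroblast, endothelial and immune cells were in part absent, while single members of some lists were well detected. Of 9 acinar enzyme genes in the files, CLPS alone reached a mean of 1 CPM (29.7 CPM in CF, 64.1 in WT), and the list summed to 31.1 CPM in CF and 65.6 in WT with CPB1 at 0 UMIs in both. The 15 endocrine markers summed to 42.4 and 66.1 CPM, with INS, GCG, PPY, PCSK1 and PCSK2 at 0 UMIs in both, and ISL1 among the members that reached 1 CPM (26.3 and 29.8 CPM). The 14 fibroblast and stellate markers summed to 2.04 CPM in CF and 5.10 in WT, with LUM, THY1, DES and COL6A3 at 0 in both. The 10 endothelial markers summed to 5.04 and 1.74 CPM, with CDH5, CLDN5, EGFL7 and TEK at 0, and 4.21 CPM of the CF sum was FLT1. The 14 immune markers summed to 12.3 and 10.95 CPM, with CD2, CD79A and CSF1R at 0, and the 13 ciliated cell markers summed to 251 and 332 CPM, nearly all of it the tubulin gene TUBB4B (250.7 and 332 CPM), the only one to reach 1 CPM. Their part in the differences below was not tested.

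UMIs of CFTR, the gene targeted in the CF animals, were counted in the library labelled CF. It had 621 UMIs (8.69 CPM) in CF and 1712 (16.9 CPM) in WT, a ratio of 0.514 (0.468 to 0.563). The study's methods describe these animals as free of CFTR transcript, and neither the altered part of the gene nor the place of the sequenced tags in it is given in the sources used here, so the count does not check the label. CF and WT stand throughout for the libraries so labelled. Among CF clusters of 40 cells or more the level of CFTR ran from 1.64 to 24.7 CPM. The study describes the donors pooled for these libraries as differing in PDX1 expression in culture, so the direction of PDX1 here is not independent of that measurement. PDX1 had 336 UMIs (4.70 CPM) in CF and none in WT, and was at least 159-fold higher with 3 UMIs taken as the floor of the WT library. Its 336 UMIs were spread over every CF cluster of that size, at 0.988 to 9.90 CPM. At 3000 UMIs a cell, 1.15% of CF cells and 0 of the WT cells had a PDX1 UMI. By the floor of 3 counts this allows up to 0.058% of WT cells with a UMI, which is no limit on cells that express the gene, and without thinning the CF share was 10.5% at the greater CF depth. No deposited class is one that should lack all these genes, so the level of free RNA could not be read from one.

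Across the 11954 genes whose mean over both libraries was at least 1 CPM, 326 (2.73%) were at least 2-fold higher in CF and 615 (5.14%) at least 2-fold lower. At 4-fold, 75 were higher and 178 lower, and the median difference of all genes tested was -0.05. In the other pairs of libraries the same genes gave 543 (4.54%) higher and 539 (4.51%) lower on day 2, 608 (5.09%) and 426 (3.56%) on day 7, and 437 (3.66%) and 462 (3.86%) on day 9. With libraries scaled by edgeR's trimmed means (TMM) or DESeq2's size factors in place of totals, the median of all genes moved by 0.05, and the share of calls that were higher in CF went from 34.6% to 38.3% or 37.9%.

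**Figure D1:**
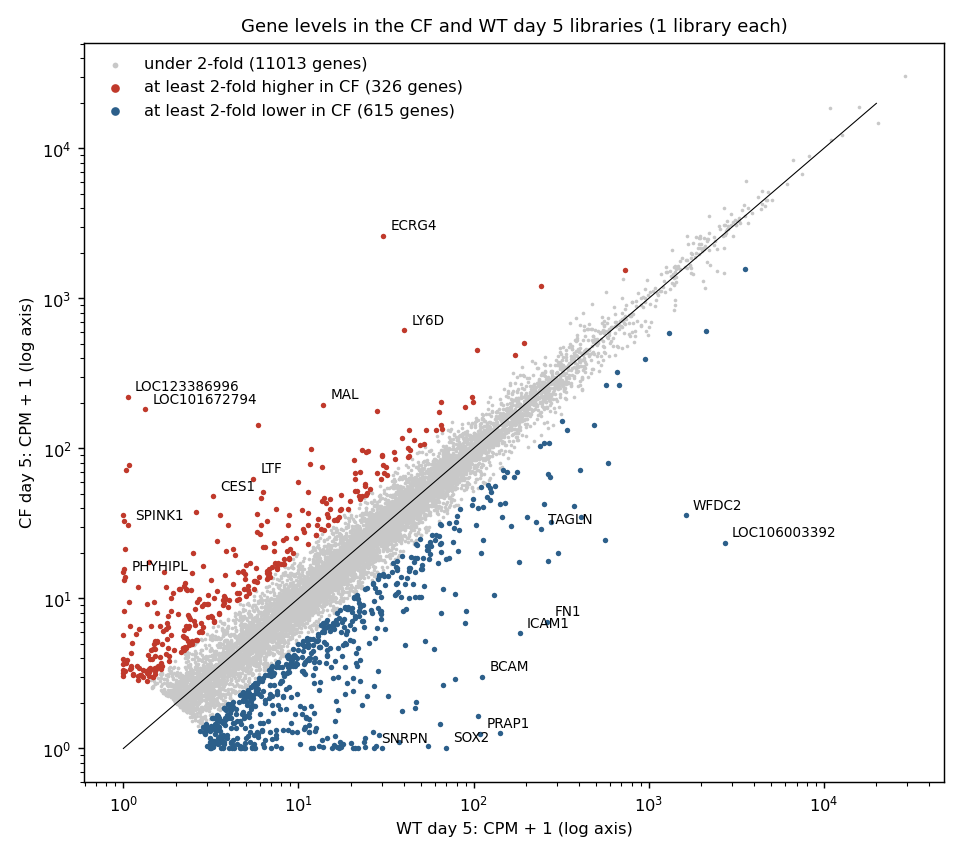
Level of each of 11954 genes in the WT day 5 library (horizontal, CPM + 1, log axis) and the CF day 5 library (vertical, CPM + 1, log axis), 1 point for each gene and 1 library for each axis. Red points are the 326 genes at least 2-fold higher in CF and blue points the 615 at least 2-fold lower, with ECRG4 far above the diagonal and WFDC2, FN1, PRAP1 and SOX2 far below it.

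Among genes with a symbol ECRG4 was the highest in CF, and only genes known by a LOC number lay above it. ECRG4, a secreted peptide precursor, had 187433 UMIs (2622 CPM) in CF and 2973 (29.4 CPM) in WT, a difference of 6.43. A UMI of it was found in 89.8% of CF and 1.64% of WT cells at 3000 UMIs a cell, and in 97.9% and 3.15% without thinning. The part of free RNA in these shares was not tested, and CF cluster 3, with 17 cells, held it at 76.4 CPM. LY6D, a GPI-anchored surface protein of stratified epithelium, stood at 612 CPM in CF and 39.2 in WT, and MAL, an apical transport proteolipid, at 195 and 12.8 CPM. UPK3A, a uroplakin of the apical membrane, stood at 50.3 and 5.29 CPM, and CST6, a cysteine protease inhibitor, at 99.0 and 10.9 CPM.

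Secreted inhibitors and defence proteins were also among the highest. SPINK1, the pancreatic trypsin inhibitor, had 2130 UMIs (29.8 CPM) in CF and 6 (0.0593 CPM) in WT, and its UMIs lay in 2.11% of CF cells at 3000 UMIs a cell (7.49% without thinning) against 0.0193% of WT cells (0.113%). LTF, the iron-binding protein lactoferrin, stood at 61.8 CPM in CF and 4.54 in WT, in 7.80% and 0.753% of cells at 3000 UMIs (22.3% and 2.23% without thinning). TFPI, the tissue factor pathway inhibitor, stood at 35.3 and 2.58 CPM. The metabolic enzymes CES1 (46.9 and 2.24 CPM), a carboxylesterase, and ASS1 (36.8 and 1.601 CPM), which makes argininosuccinate from citrulline, both differed by over 3.8. The remaining symbols in the 15 highest were PPT1 (16.5 and 0.395 CPM), a lysosomal thioesterase, SLC6A14 (14.1 and 0.712 CPM), an amino acid transporter, PM20D1 (8.49 and 0.0791 CPM), CACNA2D1 (19.1 and 1.502 CPM), a calcium channel subunit, and PHYHIPL. PHYHIPL had 925 UMIs in CF and 2 in WT, a ratio of 655 (181 to 5415).

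The 15 lowest symbols covered transcription, matrix, adhesion and secretion. SOX2 had 1 UMI in CF and 6934 (68.5 CPM) in WT, a ratio of 2.042e-04 (5.169e-06 to 0.00114). PRAP1, a secreted proline-rich protein of gut epithelium, had 18 UMIs in CF and 10847 (107 CPM) in WT. WFDC2, a secreted protease inhibitor of airway and duct epithelium, stood at 34.8 CPM in CF and 1629 in WT, the highest WT level among the 15. ICAM1, the adhesion receptor for leukocyte integrins, stood at 4.86 and 183 CPM, with a UMI in 1.44% of CF and 39.2% of WT cells at 3000 UMIs (9.85% and 72.3% without thinning).

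Genes of adhesion and matrix were also among the 15. FN1 stood at 5.99 CPM in CF and 263 in WT, BCAM, a laminin receptor, at 2.01 and 111 CPM, and TGFB2, a TGF-beta ligand, at 1.05 and 45.8 CPM. MMP14, a membrane-bound collagenase, had 1 UMI in CF and 2925 in WT, a ratio of 4.84e-04 (1.225e-05 to 0.0027). CDH13, a GPI-anchored cadherin, had 3 and 5495 UMIs, a ratio of 7.73e-04 (1.593e-04 to 0.00226). TCIM (0.448 and 63.7 CPM), DUSP2, a phosphatase of MAP kinases (0.112 and 36.8 CPM), and CLEC3A (0.224 and 28.0 CPM) were also in the group. RAB34 had 3 and 2717 UMIs, a ratio of 0.00156 (3.222e-04 to 0.00457), and ECHS1, a feature that the RefSeq table lists as a long noncoding RNA despite its symbol, 2 and 2339 UMIs, a ratio of 0.00121 (1.465e-04 to 0.00438). SNRPN, which encodes a spliceosomal protein, had 0 UMIs in CF and 2619 (25.9 CPM) in WT, at least 617-fold lower.

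Genes known by a LOC number alone reached as far. The 5 highest were LOC123386996 (15729 UMIs in CF, 6 in WT), LOC101672794 (183 and 0.336 CPM), LOC123394022 (76.2 and 0.0791 CPM), LOC123394028 (5052 and 3 UMIs) and LOC101691637, with 2500 UMIs in CF and 0 in WT, at least 1180-fold higher. The 5 lowest were LOC106003392 (22.6 CPM in CF, 2716 in WT), LOC106005313 (0.266 and 141 CPM), LOC101685649 (0.644 and 105 CPM), LOC101679831 (1.89 and 76.9 CPM) and LOC101688986 (1.67 and 66.2 CPM).

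A set of genes was nearly silent on 1 side and well expressed on the other. With at most 3 UMIs in a library and at least 5 CPM in its counterpart, a limit chosen after the values were seen, 21 genes were low in CF and 9 low in WT, and of the 9 PHYHIPL alone had a symbol. The 21 included the developmental genes SHH (0 UMIs in CF, 1096 in WT, at least 258-fold lower), a secreted morphogen, IRX1 (0 and 608, at least 143-fold), a homeobox factor, and HOXA3 (2 and 1299), along with CLEC12A (0 and 1463, at least 344-fold), a lectin receptor. GPC4, a glypican, had 3 and 1225 UMIs, and LIMCH1 2 and 1587.

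Some of these genes are neighbours in the order of the ferret annotation, an observation also made after the values were seen. MKRN3 (0 UMIs in CF, 320 in WT), NDN (0 and 1967), SNURF (0 and 1122), SNRPN (0 and 2619) and LOC101684149 (0 and 197) follow one another with MAGEL2, at 0 in both, between them. In mammals these genes lie in an imprinted region that is expressed from the paternal copy. None of them had a UMI in any of the 2750 CF cells, which by the floor of 3 counts allows up to 0.109% of cells with a UMI for each. That share leaves out cells that express a gene without a UMI of it, and SNRPN had a UMI in 35.7% of WT cells. Over the whole CF library SNRPN was at least 617-fold lower than in WT. A further run holds MTG1 (0 UMIs in CF, 274 in WT), PAOX (2 and 1672), ECHS1 (2 and 2339), FUOM (88 and 3199) and PRAP1 (18 and 10847), with SPRN before it at 120 and 349 UMIs and CALY after it at 23 and 0. On the other side LOC123394024 (786 UMIs in CF, 21 in WT), LOC123386996 (15729 and 6), LOC123394027 (2293 and 1) and LOC123394028 (5052 and 3) fall in a stretch of 6 genes.

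Cells carry class names that the authors assigned to clusters made for each genotype apart. The ductal class held 530 CF cells (19.3%, 17.8 to 20.8) and 3221 WT cells (60.5%, 59.1 to 61.8), and the centroacinar class 1642 (59.7%, 57.8 to 61.5) and 758 (14.2%, 13.3 to 15.2). The centroacinar progenitor class held 538 CF cells (19.6%) and 1148 WT cells (21.6%). The class named proliferating ductal held 199 WT cells (3.74%) and none in CF, where no cluster carries that name on any day, so no limit is given. The class named proliferating acinar held 40 CF cells (1.45%) and none in WT, which allows up to 0.0563%. CF cluster 9, named ductal, added 21 day 5 cells led by mitotic genes with TOP2A first, and no cell of either library was in the acinar class. Since no cluster holds cells of both genotypes, a share depends on how each genotype's clusters were named.

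By the study's marker genes 13 clusters did not keep their name, because more markers of another class led them or their cells were shallow. They held 118 CF and 869 WT cells of day 5. Without them the shares were 18.0% and 55.0% for ductal, 57.3% and 13.8% for centroacinar, and 18.9% and 11.1% for progenitor cells in CF and WT. WT cluster 1, with 555 cells of the progenitor class, was the largest of the 13 and the only WT progenitor cluster among them. It lost its name through 1 marker of another class, S100A4, with none of its own among its 10 leading genes. The lower WT progenitor share therefore rests on that gene. Most of the clusters that kept their name had no marker of their class among their 10 leading genes.

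**Figure D2:**
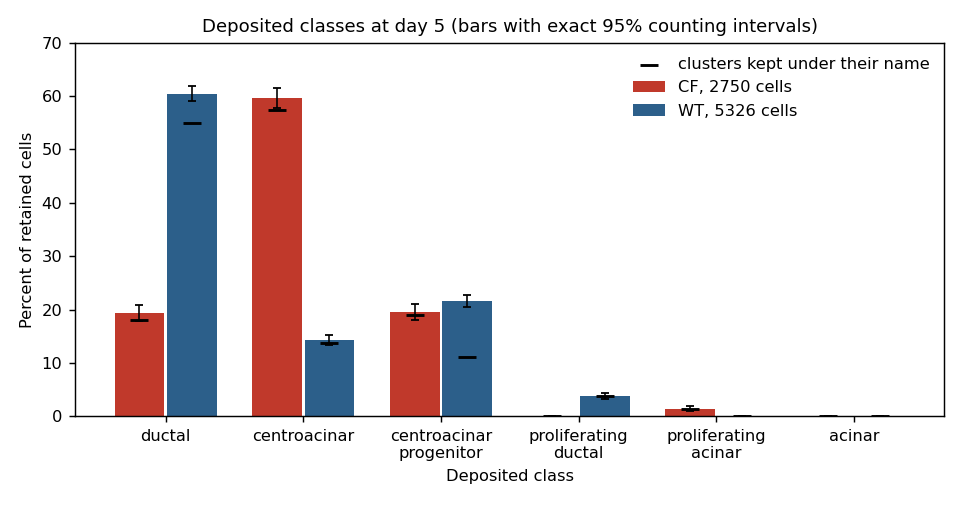
Share of retained day 5 cells in each deposited class (vertical, percent) for CF (red, 2750 cells) and WT (blue, 5326 cells), with exact 95% intervals for counting error. Black dashes give the share in clusters that kept their name. The ductal share was 19.3% in CF and 60.5% in WT, and the centroacinar share 59.7% and 14.2%.

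The CF cells fell into 12 clusters of at least 40 cells. Clusters 0 (654 cells) and 5 (436), both called centroacinar, were high in the basal keratin KRT5 (824 and 1380 CPM), which the study lists among its ductal markers. Of the study's centroacinar markers, S100A4 (0.388 and 0.282 CPM) and PROM1 (0.544 and 0.0941 CPM) were low in them, while KRT7 stood at 2919 and 4563 CPM. Both clusters kept their name with no marker of any class among their 10 leading genes. Cluster 5 was led by TAGLN (143 CPM), MYL9, CALD1 (103 CPM) and the matrix protein gene SPARC (401 CPM). Cluster 15 (344 cells, centroacinar) was led by ATP6V1B1, WIPF3 and ATP10A and had the highest median mitochondrial share of these clusters, 12.7%. Cluster 12 (329 cells, ductal) was led by PSCA, UPK3A (111 CPM) and GKN1, genes of gastric and bladder surface epithelium.

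The CF progenitor class lay mainly in clusters 17, 25 and 18. Cluster 17 (254 cells) was led by SPINK1 (192 CPM) and the gel-forming mucin MUC5AC (365 CPM), and held LTF at 235 CPM. Cluster 25 (169 cells) was led by the trefoil genes TFF1 (45.2 CPM) and TFF2 (168 CPM), and cluster 18 (89 cells) by the chemokine CCL20 and the lysozyme gene LYZ. CFTR was highest in these clusters, at 24.7, 15.4 and 15.4 CPM. Cluster 26 (96 cells, ductal) held LY6D at 3209 CPM, cluster 10 (53 cells) was led by DNA replication genes of the MCM family, and cluster 24 (40 cells) by mitotic genes with TOP2A at 423 CPM. ECRG4 was at 535 CPM or more in all 12 clusters, up to 5424 CPM in cluster 18, and at 185 CPM or less in every WT cluster of at least 40 cells. Of the WT UMIs of ECRG4, 34.0% lay in that WT cluster, number 22 with 230 cells, and the smaller WT clusters 30 and 17, with 30 cells each, held it at 926 and 545 CPM.

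**Figure D3:**
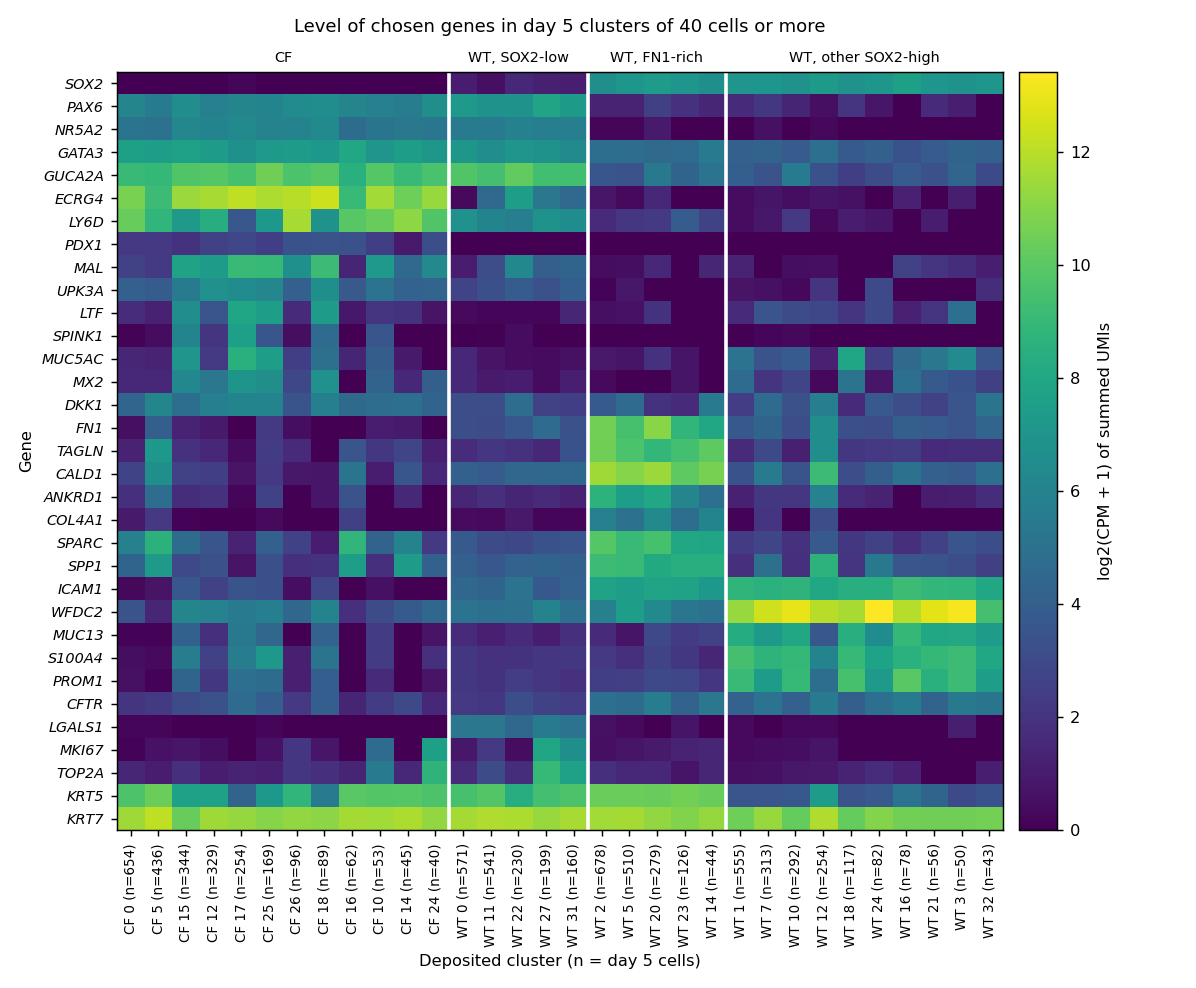
Level of 33 genes, chosen after the values were seen, as log2(CPM + 1) of summed UMIs (colour) in the day 5 clusters of at least 40 cells (columns, with their cell numbers). White lines separate CF clusters from 3 sets of WT clusters. ECRG4 was high in all CF clusters, FN1 to SPP1 in the FN1-rich WT clusters, and WFDC2, MUC13 and PROM1 in the other SOX2-high WT clusters.

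The WT cells fell into unlike sets. The WT clusters were divided at 10 CPM of SOX2 over all days, a limit chosen after the values were seen, so the levels of SOX2 in the sets describe the rule. The SOX2-low set held 1801 cells (33.8%, 32.5 to 35.1) of the WT day 5 library and 45.8% of its UMIs, and of its cells 87.2% were called ductal and 11.05% proliferating ductal. The SOX2-high clusters were divided further by FN1, so the levels and shares of FN1 in these sets describe the rule as well. The 5 clusters of at least 40 cells at 100 CPM of FN1 or more (2, 5, 14, 20 and 23) held 1637 cells (30.7%, 20.9% of UMIs), all called ductal, and the other SOX2-high clusters 1888 cells (35.4%, 33.3% of UMIs), of which 60.8% were called progenitor and 38.5% centroacinar. Clusters 36 (11 cells, 573 CPM of FN1) and 29 (21 cells, 104 CPM) were under 40 cells and stayed with the other SOX2-high clusters. Median UMIs a cell were 21163, 12028 and 17453 in the 3 sets, and WT cluster 20 in the FN1-rich set had a median of 3192.

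CF levels lay near those of the SOX2-low WT cells for some genes and near neither set for others, shown here by genes chosen after the values were seen. NR5A2, a nuclear receptor of early pancreas, stood at 55.3 CPM in CF, 49.7 in SOX2-low and 0.475 in SOX2-high WT cells. GUCA2A, the precursor of guanylin, stood at 795, 885 and 24.3 CPM, and GATA3, a factor of stratified and urothelial cells, at 173, 111 and 22.1 CPM. PAX6, which is known from endocrine cells, stood at 68.5 CPM in CF and 145 in SOX2-low cells, against 2.79 in SOX2-high cells, so that its near-equal totals in CF and WT (68.2 CPM) joined unlike WT sets. LGALS1, encoding galectin 1, was at 36.5 CPM in the SOX2-low cells alone, with 0.0700 CPM in CF and 0.456 in SOX2-high cells, and had a UMI in 10.2% of SOX2-low and 0.037% of CF cells at 3000 UMIs a cell (45.9% and 0.182% without thinning). BCAM was high in both WT sets (129 and 95.4 CPM) and at 2.01 in CF, as was SNRPN (29.1 and 23.2 CPM, 0 in CF).

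The count of differences depended on the WT set that CF was set against, and all these comparisons share the CF library. Against SOX2-low WT cells 566 genes (4.73%) were at least 2-fold higher in CF and 416 (3.48%) lower, and against SOX2-high cells 753 (6.3%) and 843 (7.05%). With the FN1-rich clusters left out of WT, a choice made after the values were seen, 351 (2.94%) were higher and 479 (4.01%) lower. CFTR itself stood at 4.94 CPM in SOX2-low and 27.1 in SOX2-high WT cells, below and above the 8.69 CPM of CF. WFDC2 (48.5 CPM in SOX2-low, 2972 in SOX2-high), TCIM (1.70 and 116), TGFB2 (1.44 and 83.4), MMP14 (1.12 and 52.4) and RAB34 (0.582 and 49.1) were low in the SOX2-low cells as they were in CF. DUSP2 had the reverse order (71.8 in SOX2-low, 7.08 in SOX2-high), as had SHH (20.2 and 2.94).

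Differences within a class joined unlike clusters. In the ductal class, held mainly by clusters 12, 26 and 10 in CF and by clusters 2, 0, 11 and 5 in WT, 498 of 11887 genes tested (4.19%) were at least 2-fold higher in CF and 904 (7.6%) lower. In the centroacinar class (clusters 0, 5 and 15 in CF, 7 and 12 in WT) 1000 of 11783 (8.49%) were higher and 814 (6.91%) lower, and in the progenitor class (clusters 17, 25 and 18 in CF, 1, 10 and 18 in WT) 797 of 11495 (6.93%) and 654 (5.69%). In clusters that kept their name the counts were 485 (4.09%) and 847 (7.14%) in the ductal, 1007 (8.55%) and 819 (6.95%) in the centroacinar, and 804 (6.97%) and 700 (6.07%) in the progenitor class. Median UMIs a cell were higher in CF in each class, 27844.5 against 15898 in ductal, 20333 against 16906 in centroacinar and 27322 against 17916 in progenitor cells.

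In the ductal class 3 of the 5 lowest genes in CF were from the mesenchymal and contractile list. This contrast depends on the class names, since the FN1-rich WT clusters were all called ductal and CF cluster 5, led by TAGLN, centroacinar. FN1 stood at 0.807 CPM in CF and 421 in WT ductal cells, CALD1 at 3.35 and 878, and TAGLN at 1.99 and 395. PRAP1 (3 and 6331 UMIs, a ratio of 0.00178, 3.666e-04 to 0.0052) and CDH13 (0 and 4921 UMIs, at least 437-fold lower) completed the 5. The highest were ECRG4 (3367 and 29.9 CPM), LYPD2 (262 and 7.41), the uroplakin UPK1A (175 and 6.05), CES1 (53.7 and 1.07) and the sialyltransferase ST6GALNAC1 (45.5 and 1.41). The sodium channel subunit SCNN1A, with near-equal totals in the libraries (97.5 CPM in CF, 88.3 in WT), stood at 95.7 CPM in CF and 5.60 in WT ductal cells and at 54.4 and 160 in centroacinar cells.

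In the centroacinar class LY6D led (718 CPM in CF, 2.95 in WT), followed by ASS1 (2303 UMIs in CF and 2 in WT, a ratio of 416, 115 to 3436), PXDC1 (130 and 1.99 CPM), DUSP9 (99.5 and 1.62) and TFPI (57.3 and 0.664). WFDC2 (23.3 CPM in CF, 4664 in WT), PRAP1 (0.320 and 208), SOX2 (0 and 1795 UMIs, at least 1657-fold lower), TCIM (0.400 and 146 CPM) and ICAM1 (3.57 and 334) were lowest. KRT5 stood at 831 CPM in CF and 103 in WT cells of this class, but at 341 and 951 in the ductal class. In the progenitor class ECRG4 led again (4208 CPM in CF, 0.334 in WT), with MAL (531 and 1.097), NRN1 (261 and 0.811), SPINK1 (1364 UMIs in CF and 1 in WT, a ratio of 1758, 315 to 6.95e+04) and NR5A2 (1219 and 0 UMIs, at least 524-fold higher). Its lowest were SOX2 (1 and 2614 UMIs, a ratio of 4.93e-04, 1.248e-05 to 0.00275), TCIM (0.860 and 199 CPM), WFDC2 (51.6 and 4638), PRAP1 (3 and 1663 UMIs, a ratio of 0.00233, 4.791e-04 to 0.00681) and RSPH4A, a radial spoke gene of cilia (1 and 1482 UMIs, a ratio of 8.7e-04, 2.201e-05 to 0.00485). CFTR stood at 7.63 and 13.2 CPM in ductal, 4.93 and 36.5 in centroacinar and 19.1 and 18.5 in progenitor cells of CF and WT.

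Gene lists are described next by the members tested, the members at least 2-fold higher or lower in CF and the list's median, to be read against 2.73% and 5.14% of all genes and a median of -0.05. Counts against a WT set or within a class are read against that comparison's own shares, which for SOX2-low WT cells were 4.73% higher and 3.48% lower, and without the FN1-rich clusters 2.94% and 4.01%. Of 15 early pancreas and endocrine factors tested, 3 were higher and 1 lower, median 0.13. The 3 were PDX1, SOX17 (2.57 CPM in CF, 0.109 in WT), an endoderm factor, and NR5A2, and the 1 was SOX2. HES1, a Notch target (856 and 731 CPM), and SOX9 differed by 0.23 and -0.17. NEUROG3, NKX6-1, PTF1A, INSM1, NEUROD1, PAX4 and SOX11 had 0 UMIs in both libraries. Of 22 epithelial lineage factors, TBX3 (9.56 and 2.05 CPM), IRX3 (30.03 and 10.3) and GATA3 were higher, and NKX2-1, a lung and thyroid factor (0.378 and 11.6), and the goblet cell factor SPDEF (4.002 and 10.3) lower, median -0.01.

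Transport, keratin and junction lists were mixed. Of 18 duct ion and fluid transport genes, the water and glycerol channel AQP3 (500 CPM in CF, 194 in WT) and the bicarbonate cotransporter SLC4A4 (3.76 and 1.26) were higher, and CLIC5 (4 and 1510 UMIs), the potassium channel subunit KCNE3 (5.25 and 30.2 CPM) and CLCA2 (50.2 and 125) lower, median -0.03. Of 4 simple keratins KRT18 (263 and 567 CPM) was lower, median -0.36. Of 10 basal keratins and desmosomal genes DSC3 (82.6 and 19.8 CPM) was higher, and DSC2 (0.112 and 22.6), DSG3 (3.99 and 17.7) and KRT15 (10.1 and 27.9) lower, so the desmocollins had opposite signs, and KRT5 stood at 548 and 626 CPM. Of 23 junction genes CLDN8 was higher (3.26 and 0.761 CPM) and CLDN3 (1.32 and 5.90) and CLDN18 (4.39 and 10.7) lower, median 0.09.

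**Figure D4:**
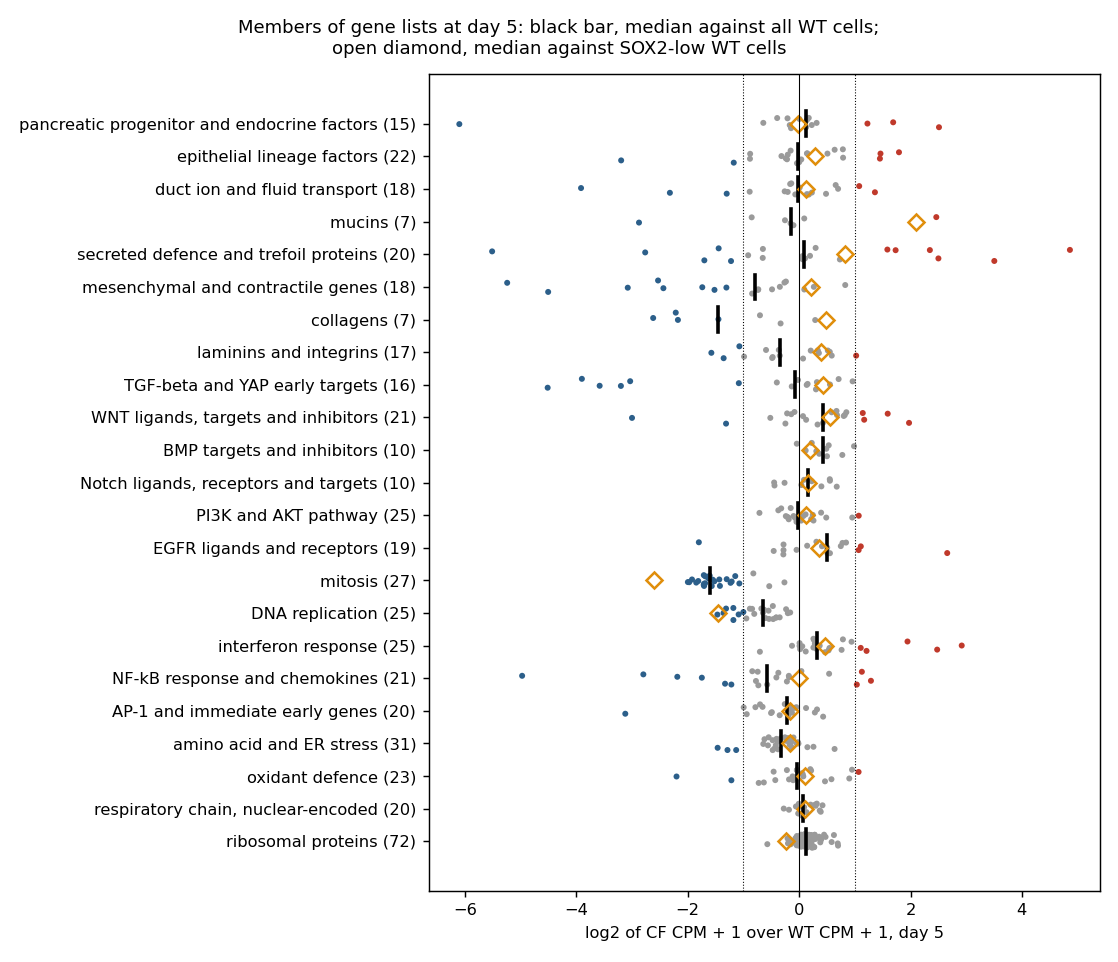
Difference of each tested member (points; horizontal, log2 of CF CPM + 1 over WT CPM + 1) in 23 gene lists, with the number of members tested in brackets. Red and blue points are at least 2-fold higher and lower in CF, bars mark the median against all WT cells and open diamonds the median against SOX2-low WT cells. Mitosis genes lay to the left with a median of -1.61, and collagens moved from -1.45 to 0.49 when WT was limited to SOX2-low cells.

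Secreted products differed in both directions. Of 20 defence and trefoil genes, 6 were higher and 5 lower, median 0.08. SPINK1, LTF, RETNLB (11.7 CPM in CF, 1.24 in WT), the chemokine CXCL14 (5.25 and 0.227), TFF1 (6.76 and 1.33) and GKN1 (88.6 and 28.9) were higher. WFDC2, the airway secretoglobins SCGB1A1 (0.630 and 10.1) and SCGB3A1 (1.25 and 5.11), CTSE (2.28 and 9.67) and the immunoglobulin transporter PIGR (1.44 and 4.69) were lower, and the list summed to 769 CPM in CF and 2220 in WT. Against SOX2-low WT cells 8 were higher and 1 lower, median 0.82, and SCGB1A1, SCGB3A1 and PIGR changed direction. Within the centroacinar class 3 of 19 were higher and 10 lower, median -1.40, where 8.49% of all genes were higher and 6.91% lower, median 0.088. In the ductal class 8 of 17 were higher and 2 lower, median 0.90, where 4.19% of all genes were higher and 7.6% lower. In the progenitor class 8 of 21 were higher and 5 lower, median 0.40, where 6.93% of all genes were higher and 5.69% lower. Of 7 mucins MUC5AC (74.2 and 12.6 CPM) was higher and MUC13 (9.68 and 77.3) lower, and the sum was 945 CPM in CF and 956 in WT. The mucin median was -0.15 against all WT cells and 2.10 against SOX2-low cells, with 6 of the 7 higher there. Against SOX2-high cells 1 was higher and 3 lower, median -0.83, where 6.3% of all genes were higher and 7.05% lower. Within the centroacinar class 1 of 7 was higher and 6 lower, median -1.67. In the ductal class 6 of 8 were higher and none lower, median 1.66. In the progenitor class 1 of 8 was higher and 2 lower, median -0.49.

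The mesenchymal and contractile list had 8 of 18 members lower and none higher, median -0.79. FN1 and CALD1 (23.7 CPM in CF, 560 in WT) were lowest, followed by TAGLN (27.8 and 242), PALLD (34.1 and 202), S100A4 (29.3 and 163), SPP1 (41.7 and 142), MYL9 (27.7 and 81.3) and ITGA5 (2.64 and 8.01), while VIM stood at 35.7 and 42.3 CPM. The FN1-rich clusters held 97.0% of the WT UMIs of TAGLN and 92.5% of those of CALD1, and 94.4% of those of FN1, by which they were chosen. FN1 stood at 1189 CPM there, 29.4 in the other SOX2-high cells, 10.7 in the SOX2-low cells and 5.99 in CF. TAGLN stood at 1124, 17.3, 3.54 and 27.8 CPM in the same order, so that CF was above the WT cells outside the FN1-rich clusters. Against SOX2-low cells 4 members were at least 2-fold higher in CF and none lower, median 0.22, and without the FN1-rich clusters 2 were higher and 4 lower, median 0.31. Leaving those clusters out lowers WT for any gene high in them, so a rise in its difference follows from the choice. CF was not trimmed, and CF cluster 5 held 76.4% of the CF UMIs of TAGLN and 64.7% of those of CALD1. That cluster was called centroacinar and the FN1-rich WT clusters ductal, so values within a class depend on the naming. In the ductal class 15 of 19 members were lower and none higher, median -1.96, where 4.19% of all genes were higher and 7.6% lower. In the centroacinar class 5 of 18 were higher and 6 lower, median 0.37, where 8.49% and 6.91% were. In the progenitor class 2 of 17 were higher and 4 lower, median -0.11, where 6.93% and 5.69% were. At 3000 UMIs a cell, FN1 had a UMI in 1.07% of CF cells, 79.6% of FN1-rich and 2.84% of SOX2-low WT cells (3.53%, 91.0% and 15.7% without thinning).

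Some matrix and TGF-beta genes depended on the FN1-rich clusters and others did not. The clusters were left out of WT alone, so the differences of genes high in them shift upward by that choice. Of 7 collagens COL4A1 (0.923 CPM in CF, 10.8 in WT), COL4A2 (0.825 and 7.47), COL5A2 (9.21 and 45.1) and COL12A1 (4.13 and 12.99) were lower, median -1.45, whereas without the FN1-rich clusters 1 was higher and none lower, median 0.72. Of 17 laminins and integrins LAMB1 (49.2 and 23.7 CPM) was higher, and ITGB8 (0.238 and 2.69), LAMA3 (68.3 and 176) and ITGB6 (151 and 318) lower, median -0.35 and 0.40 without the FN1-rich clusters, where ITGB8 still differed by -1.14. Of 14 matrix proteases and inhibitors ADAMTS1 (42.5 and 13.3 CPM) was higher and 2 were lower, among them MMP14, which differed by -4.88 and by -4.14 without those clusters. Of 16 TGF-beta and YAP genes 6 were lower, among them TGFB2, TGFBI (16.8 and 265), INHBA (0.937 and 22.2), ANKRD1 (7.00 and 64.4) and TGFB1 (56.1 and 120), and none higher, median -0.08. CCN2, a target of both pathways, stood at 919 CPM in CF and 472 in WT, just inside 2-fold, and without the FN1-rich clusters the list had 2 higher and 2 lower. TGFB2 differed by -4.51 with these clusters and by -4.26 without them. Within the ductal class 6 of 7 collagens and 9 of 17 laminins and integrins were lower and none higher, medians -3.06 and -1.07. In the centroacinar class 2 of 7 collagens were higher and 1 lower, median 0.52. Of 17 laminins and integrins there 6 were higher and 1 lower, median 0.55. In the progenitor class 2 of 3 collagens and 4 of 17 laminins and integrins were higher, and none and 2 lower. The shares of all genes in each class are those given for the mesenchymal list.

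The other signalling lists differed in how many members passed 2-fold. Of 21 WNT genes 4 were higher, among them TRIM14 (3.32 CPM in CF, 0.0988 in WT), DKK1, a secreted WNT inhibitor (44.8 and 14.2), and CCND1 (142 and 64.0), and the ligand WNT7A (1.82 and 21.5) and SFRP1 (108 and 270) were lower, median 0.43. With the FN1-rich clusters left out of WT alone, 4 WNT genes were higher and none lower, median 0.62. WNT7A then differed by -0.50, against -3.00 with all WT cells. None of 10 BMP genes or 10 Notch genes differed 2-fold between the whole libraries, with medians of 0.43 and 0.16. Against SOX2-high WT cells 5 of the BMP and 2 of the Notch genes were higher in CF and none lower, where 6.3% of all genes were higher and 7.05% lower. Against SOX2-low WT cells no BMP gene differed 2-fold, median 0.19, and 1 Notch gene was higher and none lower, median 0.17. The BMP list summed to 3291 CPM in CF, 5017 in SOX2-low and 1304 in SOX2-high cells, so CF lay between the WT sets. Within the centroacinar class 9 of 12 BMP genes tested were higher and 1 lower, median 1.42, and 5 of 10 Notch genes higher and 1 lower, median 0.89. Of all genes tested in that class 8.49% were higher and 6.91% lower, median 0.088. Of the 758 WT centroacinar cells 727 were in SOX2-high clusters, as were all 1148 WT progenitor cells. Values within these classes therefore largely set CF against SOX2-high WT cells. Within the progenitor class 7 of 11 BMP genes were higher and 1 lower, median 1.52. Of 10 Notch genes there 3 were higher and none lower, median 0.48. These stand beside 6.93% and 5.69% of all genes and a median of 0.045. In the ductal class no BMP gene was higher and 1 of 10 lower, median -0.23, near the 4.19% and 7.6% of all genes and their median of -0.15. Of 11 Notch genes in the ductal class none was higher and 3 were lower, median -0.36. Of 25 genes of the PI3K and AKT pathway SGK1 (66.0 and 30.9 CPM) was higher, median -0.01. Of 19 EGFR ligands and receptors EGF (8.44 and 0.494), ERBB3 (27.9 and 12.4) and FGFR3 (32.6 and 15.01) were higher and EPHB2 (3.19 and 13.6) lower, median 0.50. With the FN1-rich clusters left out of WT, 1 of these 19 was higher and none lower, median 0.45. Of 6 IGF binding proteins IGFBP2 (9.09 and 0.870) was higher, median 0.19.

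Mitosis genes were lower in CF for most of their list, and DNA replication genes for fewer. Of 27 mitosis genes 24 were lower and none higher, median -1.61, with MKI67 at 6.06 CPM in CF and 22.05 in WT and TOP2A at 14.03 and 45.4. Of 25 DNA replication genes 7 were lower, median -0.65, and TK1 was lowest (3.78 and 12.2 CPM). The WT level was highest in the SOX2-low cells. The mitosis list summed to 185 CPM in CF, 1179 in SOX2-low and 59.1 in SOX2-high cells, so CF lay between the WT sets, with 26 members lower than in SOX2-low cells and 21 higher than in SOX2-high cells. MKI67 had a UMI in 0.887% of CF, 8.23% of SOX2-low and 0.148% of SOX2-high cells at 3000 UMIs (3.49%, 19.3% and 0.681% without thinning). The class names set mitotic cells apart, 199 of WT cluster 27 and 40 of CF cluster 24, while CF cluster 9 stayed in the ductal class. Values of mitosis genes within a class therefore depend on that naming. Within the ductal class 3 of 27 mitosis genes were lower and none higher, median -0.71, beside 7.6% of all genes lower there and a median of -0.15. Of the 13 tested within the centroacinar class none differed 2-fold, median 0.11 (0.088 for all genes), and of the 13 in the progenitor class 4 were higher and none lower, median 0.56, beside 6.93% of all genes higher and a median of 0.045. Of 18 cyclins, inhibitors and p53 targets CCND1 was higher and MDM2 (142 and 486 CPM) and SESN2 (3.96 and 8.93) lower, median -0.33.

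Interferon response genes at least 2-fold apart were all higher in CF, and those of the NF-kB list lay on both sides. Of 25 interferon response genes 5 were higher and none lower, median 0.31: the antiviral GTPases MX2 (45.4 CPM in CF, 5.14 in WT) and MX1 (2.00 and 0.296), the immunoproteasome subunits PSMB9 (10.6 and 1.09) and PSMB8 (2.28 and 0.524), and ISG20 (94.6 and 23.8). MX2 reached 124 CPM in CF cluster 17 and was at 1.86 CPM or less in clusters 0 and 5. Of 21 NF-kB and chemokine genes VRK2 (8.02 and 2.69), CX3CL1 (132 and 60.1) and LTB (27.7 and 12.98) were higher, and ICAM1, CSF3 (1.96 and 19.5), CXCL8 (0.0839 and 3.93), IL1A (9.98 and 35.8), CSF1 (11.3 and 30.02) and NFKBIZ (63.4 and 149) lower, median -0.57. Of 20 AP-1 and immediate early genes NR4A1 (2.28 and 27.5) was lower, median -0.23.

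Each metabolic and stress list had at most 3 members past 2-fold. Of 31 amino acid and ER stress genes DDIT3 (17.6 CPM in CF, 50.4 in WT), DDIT4 (25.2 and 62.9) and NUPR1 (25.5 and 56.9) were lower, median -0.32. Of 23 oxidant defence genes the copper chaperone ATOX1 (1541 and 734 CPM) was higher and PRDX2 (23.6 and 112) and DUOXA2 (17.9 and 43.0) lower, median -0.04. CA9 (9.84 and 3.55) was the only one of 25 glycolysis and hypoxia genes past 2-fold, median 0.11, and of 11 retinoid genes LRAT (2.55 and 0.583) was higher and DHRS9 (16.1 and 33.8) lower, median 0.17. Of 10 S100 genes S100A4 was lower, median 0.05. None differed 2-fold among 10 heat shock, 20 respiratory chain, 25 cholesterol and fatty acid, 72 ribosomal protein and 13 mitochondrial genes, whose medians were -0.03, 0.07, 0.06, 0.13 and 0.29.

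Of 25 genes tested that the study singles out between CF and WT PDE cultures, some in other cultures and some at other days of this series, 8 were higher and 2 lower, median 0.05. Those higher included ECRG4, TMEM45B (8.23 CPM in CF, 0.366 in WT), PCDH10 (4.06 and 0.119), TRIM14, ISG20, VRK2 and LAMB1, and those lower were ICAM1 and SPP1. Members such as ICAM1 were chosen by the study on these samples, and so are no independent evidence of direction.

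FN1 and TAGLN alone were at least 2-fold lower in CF on day 5 and at least 2-fold higher on each other day, and no difference between days was tested. They differed by -5.24 and -3.08 on day 5, but by 1.93 and 1.07 on day 2, 2.11 and 2.21 on day 7, and 1.47 and 1.14 on day 9. In all, 25 genes at least 2-fold apart on day 5 had the opposite sign on each other day, 24 of them lower in CF on day 5. They included, chosen after the values were seen, CALD1, ANKRD1, SPP1, COL12A1, LAMA3, ITGA5, the lysyl oxidase LOXL2 (0.0839 CPM in CF, 2.39 in WT) and the basement membrane collagen COL4A4 (9.56 and 34.4), and CHCHD10 (10.5 and 4.61) was the 1 higher in CF. CALD1 differed by -4.50 on day 5 and by 0.32, 0.46 and 0.47 on days 2, 7 and 9, and SPP1 by -1.74 and by 0.22, 3.68 and 3.51. FN1 stood at 3.23, 5.99, 404 and 431 CPM in CF on days 2, 5, 7 and 9, and at 0.113, 263, 93.1 and 155 CPM in WT, so the high WT level was there on day 5 and the high CF level from day 7. With 1 library for each day and genotype, the order of day and the spread between cultures cannot be told apart.

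**Figure D5:**
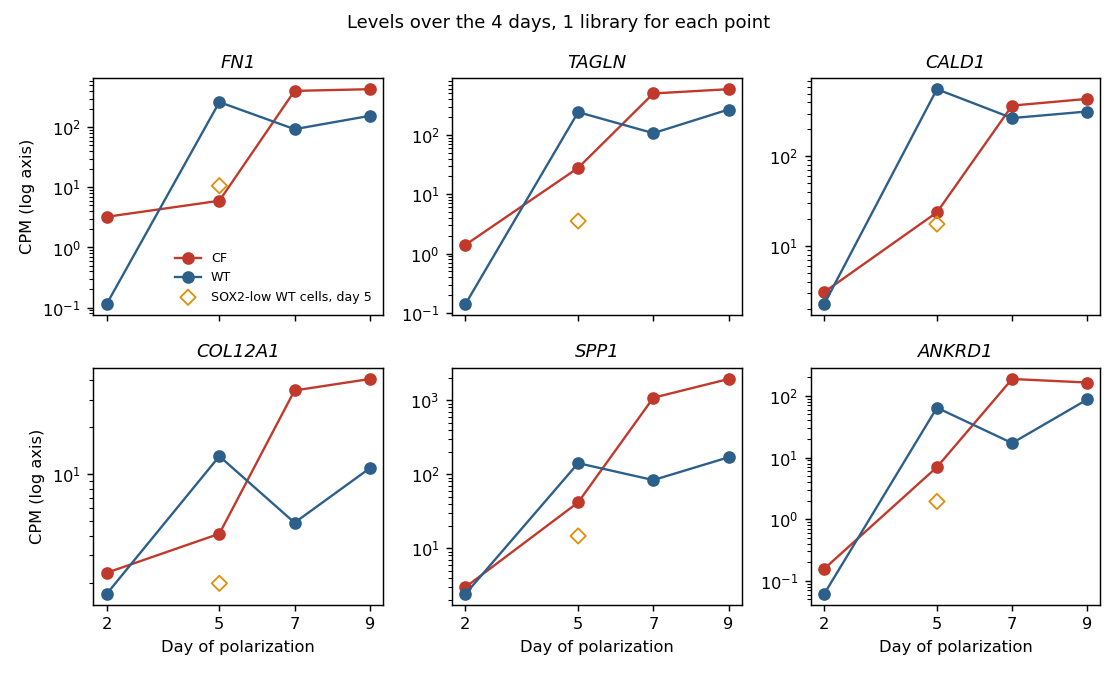
Level (vertical, CPM, log axis) of 6 genes against day of polarization (horizontal) in CF (red) and WT (blue), 1 library for each point, with the SOX2-low WT cells of day 5 as open diamonds. In all 6 panels CF lay above WT on days 2, 7 and 9 and below it on day 5, by small margins for CALD1, SPP1, ANKRD1 and COL12A1 on day 2.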

How the data were processed

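The authors counted UMIs of 10x libraries against assembly ASM1176430v1.1 with Cell Ranger 5.0.1, filtered cells in Seurat under R 4.1.2, removed doublets with DoubletFinder, and clustered and named each genotype apart with no batch correction. The deposited matrices hold raw UMI counts, and the deposited cell table holds the library, cluster, UMI count and percent of mitochondrial UMIs of each retained cell. The strand setting was not given in the sources used here, so the assignment of reads where genes overlap could not be checked.

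UMIs of the 2 day 5 libraries were summed over retained cells and scaled to CPM, and genes of mean at least 1 CPM were compared as log2 of CPM with a pseudocount of 1 and counted as higher or lower from 2-fold. Intervals at 95% are exact Poisson for CPM, Clopper-Pearson for shares and conditional binomial for ratios, for counting error only, and 3 UMIs a library were the floor of a 0. Shares of cells with a UMI were also taken after thinning each cell to 3000 UMIs, which left out 45 CF and 150 WT cells. The computation was checked on simulated data. Named genes are the 15 highest and lowest symbols, the 5 highest and lowest LOC genes, the 5 highest and lowest of each class at a mean of 10 CPM or more, genes apart on day 5 and members of the lists. Some list members are counted with their list and not reported here by name. Members and lists were chosen with earlier results of these data known. Alternatives were TMM (edgeR 4.0.16) and DESeq2 1.42.0 size factors, pseudocounts of 0.5 and 5, a 10 CPM filter and none, all barcodes, deep cells, equal weights for cells or classes, and WT subsets, in Python 3.11.15 (numpy 2.4.6, scipy 1.17.1, pandas 2.3.3) and R 4.3.3.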

Additional observations from a re-analysis of the deposited data

Results flagged for a closer look

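FN1 was 5.99 CPM in CF and 263 CPM in WT on day 5, a difference of -5.24, while it was at least 2-fold higher in CF on each other day, by 1.93, 2.11 and 1.47 on days 2, 7 and 9. TAGLN differed by -3.08 on day 5 (27.8 and 242 CPM) and by 1.07, 2.21 and 1.14 on the other days. What set them apart was the opposite direction on day 5, and the difference between days was not tested, since each day and genotype is 1 library. On day 5 the WT clusters of at least 40 cells chosen for at least 100 CPM of FN1 held 94.4% of the WT UMIs of FN1, which describes that choice, and 97.0% of those of TAGLN. Without those clusters the day 5 differences were -1.48 for FN1 and 1.48 for TAGLN. Leaving them out of WT alone raises both values by construction.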

How the results depend on the processing

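No paired analysis was possible because the labels give no replicate numbers and each genotype has 1 library. With a pseudocount of 5 CPM, 141 genes were higher and 280 lower in CF, and with a mean of at least 10 CPM 140 and 242. Against SOX2-low and SOX2-high WT cells 566 and 753 were higher. The other settings kept both counts within 1.5 times of 326 and 615. The CFTR difference of -0.89 became -0.68 with a pseudocount of 5, -1.17 with equal weight for each cell, 0.71 against SOX2-low cells, -1.53 against SOX2-high cells and -0.61 without the FN1-rich clusters. That of PDX1 became 0.96 and 3.38 with pseudocounts of 5 and 0.5, and had no value under the 10 CPM filter. The ductal share at day 5 differed by -41.2 points, and by -37.0 in clusters that kept their name. The construction of each setting sets the size of the counts and of the PDX1 values, and for the others the cause was not tested.

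Among the genes and lists named that differed at least 2-fold, signs reversed under a change of the WT cells alone. Values close to 0, such as LOXL2 0.026, NKX2-1 0.012, CLCA2 0.038 and ITGB6 0.0021 below, mean that the difference was gone and not that it turned. Against SOX2-low cells the differences were TAGLN 2.67, ANKRD1 1.44, CALD1 0.41, CLCA2 0.038, CLDN18 1.02, CLDN3 0.74, COL12A1 0.78, COL4A1 0.52, COL4A2 0.49, COL4A4 0.94, COL5A2 2.13, CSF3 0.48, DSG3 0.74, DUOXA2 0.81, INHBA 0.25, ITGA5 0.29, ITGB6 0.35, KCNE3 1.45, LAMA3 0.71, LOXL2 0.026, MDM2 0.45, MUC13 1.98, MYL9 0.66, NKX2-1 0.012, PIGR 1.01, PROM1 1.19, S100A4 2.22, SCGB1A1 0.56, SCGB3A1 0.89, SFRP1 0.59, SPDEF 1.12, SPP1 1.45, TGFB1 0.11 and TGFBI 0.54, with a median of 0.49 for collagens. Without the FN1-rich clusters, a setting added after the values were seen, they were TAGLN 1.48, ANKRD1 0.30, CLCA2 0.088, COL12A1 0.74, COL4A2 0.10, COL4A4 0.39, COL5A2 1.51, INHBA 0.13, ITGA5 0.38, ITGB6 0.0021, LOXL2 0.029, MYL9 0.62, SFRP1 0.11, SPP1 0.21 and TGFB1 0.0898, with a median of 0.72 for collagens. Leaving those clusters out of WT alone raises the difference of any gene high in them by construction. Against SOX2-high cells the differences were MKI67 2.28, TK1 2.08 and TOP2A 2.75, with a median of 1.67 for mitosis genes. Inside 2-fold, CFTR (above) and the medians of the mesenchymal list (0.22), laminins and integrins (0.40) and mucins (2.10) were among those that changed sign against SOX2-low cells. None of the differences of at least 2-fold reversed under another scaling, pseudocount, filter, weighting or choice of barcodes.

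Depth limits genes of a few UMIs in a library and cell shares near 0.1%. With 1 library a side, the spread between cultures or donors is unknown, and intervals for counting error are too narrow as limits on the genotypes.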
